A study of Homo sapiens with 12 samples.

Results

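The genes described here are 10 enzymes of steroid and xenobiotic metabolism: the steroid dehydrogenases HSD3B1, HSD3B2 and HSD17B2, the cytochromes P450 CYP1A1, CYP1B1 and CYP3A5, the esterase AADAC, the sulfotransferases SULT2A1 and SULT1A1, and the glucuronosyltransferase UGT1A6. They are 10 of the 20046 genes named on the array and were measured with 16 of its 47323 probes, taken as all probes that the platform's annotation gives to these symbols. The genes were selected on their levels in these same arrays, so their levels and fold changes are given below as a description, with no p-value and no test in their support. Where the fit over all genes called members, they are counted beside the share of all genes called, and nothing is read from the counts. The series asked which transcripts change when ESRRG, a member of the estrogen-related receptors, is overexpressed in AGS and MKN45, a pair of long-established gastric cancer cell lines. ESRRG OE cells received a lentiviral vector with the full-length ESRRG cDNA behind an EF1 promoter and a puromycin selection marker. Control cells received a control lentiviral vector, and RNA of both was taken 3 days later. Each of the 4 groups had 3 samples and 1 array per sample, the labels do not say that the samples came from separate cultures, and each response is that of 1 cell line under a promoter that is active at all times. P-values given for other genes then measure only the spread between these samples.

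Levels are log2 intensities after quantile normalization, and a probe was counted as detected on an array where its detection p-value, set against the negative controls of that array, was under 0.05. Between 18795 and 20378 probes were detected on an AGS array and between 19465 and 20397 on an MKN45 array, and arrays of a group correlated at 0.991 to 0.997 over all probes. The brightest of the 3 ESRRG probes was at 6.90 ± 0.19 in ESRRG OE and 7.27 ± 0.10 in control AGS cells, and at 6.94 ± 0.09 in ESRRG OE and 6.91 ± 0.09 in control MKN45 cells (SD, n = 3 each). The other 2 ESRRG probes were detected on no array. Whether these probes lie within the introduced cDNA is not given in the sources used here, so ESRRG on the arrays does not check the labels. Apart from the arrays, the paper reports western blots and qRT-PCR of ESRRG in infected gastric cancer lines, from a panel with AGS and MKN45. Whether those were the cells of these arrays is not stated. All 6 epithelial markers (EPCAM, KRT8, KRT18, KRT19, CDH1 and CLDN4) were detected on the 12 arrays and the 3 leukocyte markers with a named probe on none. The 4 fibroblast and 3 endothelial markers had group means of 7.18 or less. Of these COL1A1 was detected on 10 arrays and each of the others on 1 or none. Of the 5 gastric markers with a named probe, 2 moved with the vector. TFF1, a trefoil peptide of gastric mucus, was at 12.24 ± 0.17 in ESRRG OE and 6.92 ± 0.11 in control AGS cells, and at 12.87 ± 0.07 in ESRRG OE and 7.37 ± 0.18 in control MKN45 cells. CLDN18, a claudin of stomach epithelium, was detected on all 6 ESRRG OE arrays (8.58 ± 0.01 in AGS and 8.39 ± 0.02 in MKN45 cells) and on no control array. TFF2, MUC6 and GKN1 stayed at group means of 6.68 to 7.14 and were detected on 2, 8 and 0 arrays. Of the 4 hepatocyte markers, APOA2 was detected on all 12 arrays, at 11.87 ± 0.11 in ESRRG OE and 10.75 ± 0.12 in control AGS cells and at 10.53 ± 0.08 in ESRRG OE and 9.46 ± 0.14 in control MKN45 cells (SD, n = 3 each). ALB, TTR and SERPINA1 had group means of 6.85 to 7.10 and were detected on 5, 1 and 1 arrays, ALB on all 3 ESRRG OE arrays of MKN45 cells. How these markers relate to the enzyme genes below was not tested.

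Small lipophilic molecules are cleared in successive steps. Functionalizing enzymes, among them cytochromes P450 and esterases, first expose or add a polar group, and conjugating enzymes then attach sulfate, glucuronic acid or glutathione, after which transporters carry the product out of the cell. Steroids pass through the same system, and 3-beta-hydroxysteroid dehydrogenases additionally turn the inactive precursors pregnenolone and dehydroepiandrosterone (DHEA) into progesterone and androstenedione. These activities are best known from liver, intestine and steroid-making glands, and many of their genes are controlled by nuclear receptors or, for the CYP1 family, by the aryl hydrocarbon receptor.

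The first 4 of the promoters below belong to the 4 members whose ESRRG OE and control arrays did not overlap, with ESRRG OE higher, in both lines, and the fifth to CYP1A1, for which this was so in AGS cells alone. Each is the 250 bases before the gene's annotated start in RefSeq (GRCh38.p14), written 5′ to 3′ on the gene's strand: chr1:119506953-119507202 on the plus strand for HSD3B1, chr7:99679997-99680246 on the minus strand for CYP3A5, chr3:151813866-151814115 on the plus strand for AADAC, chr19:47886316-47886565 on the minus strand for SULT2A1 and chr15:74725529-74725778 on the minus strand for CYP1A1. Capitals mark matches on either strand to AGGTCA, the core half-site of many nuclear receptors, to AAGGTCA, the same half-site with the A before it that estrogen-related receptors prefer, and to GCGTG, the core of the site that the aryl hydrocarbon receptor binds.
HSD3B1: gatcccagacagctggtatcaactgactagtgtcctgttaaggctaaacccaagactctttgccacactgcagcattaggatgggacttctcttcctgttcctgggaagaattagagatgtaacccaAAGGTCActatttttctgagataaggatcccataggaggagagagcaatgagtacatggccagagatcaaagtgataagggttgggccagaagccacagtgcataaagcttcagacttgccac
CYP3A5: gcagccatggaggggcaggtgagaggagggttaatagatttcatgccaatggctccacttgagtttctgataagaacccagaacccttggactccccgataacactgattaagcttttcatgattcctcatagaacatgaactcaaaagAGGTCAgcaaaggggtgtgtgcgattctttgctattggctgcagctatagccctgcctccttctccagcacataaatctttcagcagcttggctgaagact
AADAC: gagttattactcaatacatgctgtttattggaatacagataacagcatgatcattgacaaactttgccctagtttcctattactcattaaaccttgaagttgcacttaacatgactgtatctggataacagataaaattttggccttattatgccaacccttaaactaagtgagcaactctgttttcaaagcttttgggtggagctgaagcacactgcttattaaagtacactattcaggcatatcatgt
SULT2A1: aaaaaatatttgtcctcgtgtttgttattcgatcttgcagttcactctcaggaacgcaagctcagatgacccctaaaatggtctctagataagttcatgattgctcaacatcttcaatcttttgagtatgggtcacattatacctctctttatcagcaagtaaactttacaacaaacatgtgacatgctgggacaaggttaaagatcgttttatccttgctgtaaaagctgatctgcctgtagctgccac
CYP1A1: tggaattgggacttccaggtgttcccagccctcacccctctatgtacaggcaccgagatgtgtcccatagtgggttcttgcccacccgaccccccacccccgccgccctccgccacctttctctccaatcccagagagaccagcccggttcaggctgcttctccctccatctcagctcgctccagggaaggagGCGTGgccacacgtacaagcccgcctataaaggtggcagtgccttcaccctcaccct
The HSD3B1 window held the longer form of the half-site 123 bases before the start, and with it the core. The CYP3A5 window held the core alone, 101 bases before the start. Neither form was found in the AADAC, SULT2A1 and CYP1A1 windows. Of 35116 RefSeq promoter windows of this length, 12.1% held the core half-site and 3.44% the longer form. The core of the aryl hydrocarbon receptor site was in the CYP1A1 window, 57 bases before the start, and in 32.2% of all windows. The UGT1A6 window also held it, and the HSD3B2 window held none of these motifs. The end of the HSD3B2 window resembles the beginning of the HSD3B1 window. The windows of this pair thus do not cover matching stretches, and their motifs cannot be compared. A match is a description of letters, and sites outside these windows were not searched. SULT1A1, HSD17B2 and CYP1B1 had no promoter entry.

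In number, 6 of the 7 members that passed the filter on detection in AGS cells differed between ESRRG OE and control past the threshold of limma, 5 higher and 1 lower. In MKN45 cells 6 of 8 did, 4 higher and 2 lower. The filter kept a gene in a line if 3 or more of its 6 arrays detected it, and HSD3B1 in AGS cells and AADAC in MKN45 cells passed it mainly through their ESRRG OE arrays. Over all genes, 51.3% of 10920 passed the same threshold in AGS cells (24.1% rose and 27.2% fell) and 41.0% of 11240 in MKN45 cells (20.1% rose and 20.9% fell). Among the members tested, ESRRG OE and control arrays did not overlap for the same 6 in AGS cells and for 6 in MKN45 cells, against 57.2% and 50.2% of all genes tested in AGS and in MKN45 cells. Since the members were selected on these arrays, nothing is read from their counts.

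**Figure D1:**
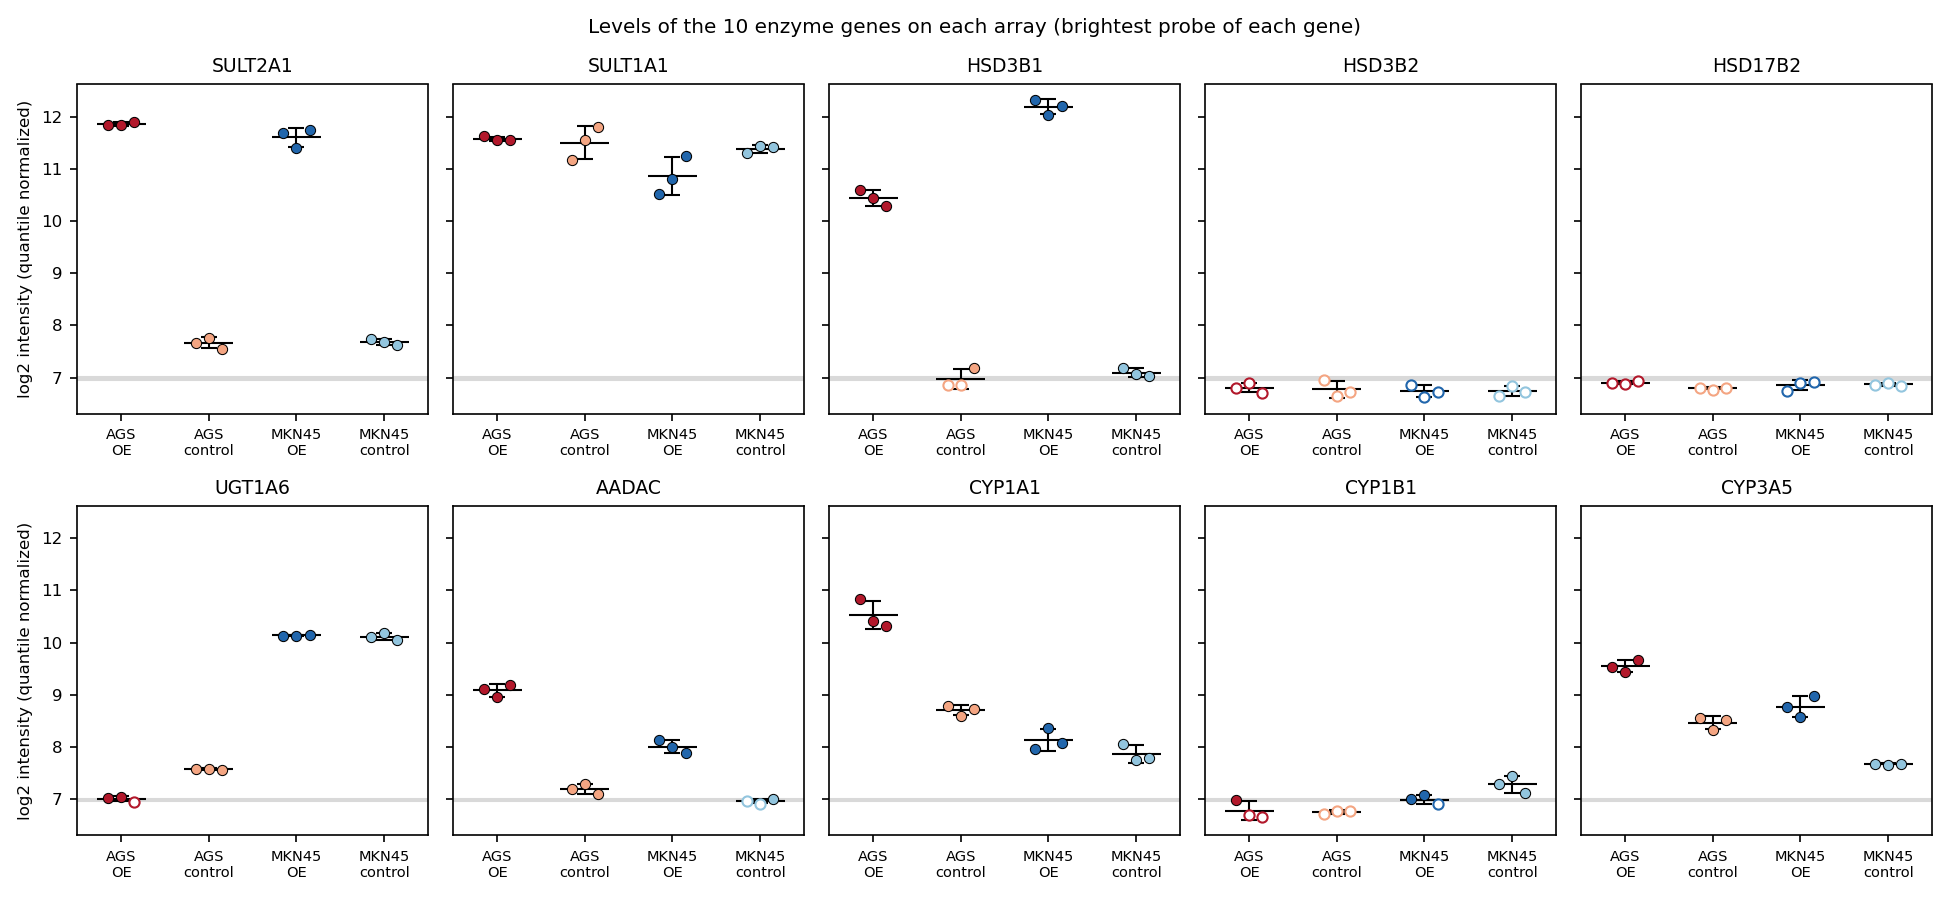
Log2 intensity (y axis, quantile normalized) of the brightest probe of each of the 10 genes on each of the 12 arrays, by group (x axis). Filled points are detected and open points not detected arrays, bars are the mean ± SD of 3 arrays, and the grey band spans the lowest level of a detected probe over the arrays. SULT2A1 and HSD3B1 sit more than 3 log2 units above their controls in both lines, and HSD3B2 and HSD17B2 were detected on no array.

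Among the steroid dehydrogenases, HSD3B1 had the widest span of the 10 genes: its 4 group means spread over 5.22 log2 units. HSD3B1 is the 3-beta-hydroxysteroid dehydrogenase of placenta and peripheral tissues. It was at 10.59, 10.44 and 10.29 in ESRRG OE AGS cells, against 6.85, 6.86 and 7.19 in control AGS cells, where it was detected on 1 of 3 arrays. The MKN45 values were 12.32, 12.04 and 12.20 with ESRRG OE, against 7.19, 7.06 and 7.04 in controls. The controls of both lines thus sat close to the background, and all 6 ESRRG OE arrays lay far above them. The log2 fold change was 3.48 (SE 0.14) in AGS cells, or 11.1-fold, and 5.09 (SE 0.09) in MKN45 cells, or 34.1-fold. The difference between the lines was -1.62 log2 units (AGS minus MKN45, SE 0.14). Control levels of MKN45 and AGS cells differed by 0.13 log2 units, so nearly all of this difference lay in the ESRRG OE arrays, where MKN45 cells were 1.75 log2 units above AGS cells. With control signals this near the background, background correction moved the fold: after the neqc correction of limma it was 37.6 in AGS and 104.1 in MKN45 cells.

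HSD3B2, the paralog used in adrenal gland and gonads, was not detected on any of the 12 arrays. Its group means lay between 6.74 and 6.80, below the level at which probes were detected. HSD3B1 and HSD3B2 are near-identical genes, and probe sequences were not used here, so how well the probes separate the pair is not known. HSD17B2, which oxidizes estradiol and testosterone to their less active ketones, was also detected on no array, with group means of 6.79 to 6.90. For both genes only an upper bound on the level can be given, and no fold is given.

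The cytochromes P450 behaved in 3 ways. CYP3A5, a drug- and steroid-oxidizing enzyme of liver and gut, was higher with ESRRG OE in both lines, by nearly the same amount without background correction. It was at 9.53, 9.44 and 9.67 in ESRRG OE AGS cells against 8.55, 8.32 and 8.52 in controls, and at 8.76, 8.58 and 8.97 in ESRRG OE MKN45 cells against 7.68, 7.66 and 7.68 in controls. The groups did not overlap in either line, with log2 fold changes of 1.08 (SE 0.10) in AGS and 1.10 (SE 0.11) in MKN45 cells, that is 2.12-fold for the first and 2.14-fold for the second. The difference between the lines was -0.01 log2 units (SE 0.14), while the level itself was lower in MKN45 than in AGS cells, with differences of -0.78 log2 units with ESRRG OE and -0.79 in controls (MKN45 minus AGS). The ESRRG OE arrays of MKN45 cells lay just above the AGS control arrays. After neqc the CYP3A5 fold was 2.52 in AGS and 3.08 in MKN45 cells, so the near equality did not hold there.

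CYP1A1, the classical target gene of the aryl hydrocarbon receptor that oxidizes polycyclic aromatic hydrocarbons and estrogens, differed between the lines. In AGS cells it was at 10.84, 10.42 and 10.32 with ESRRG OE and at 8.78, 8.59 and 8.73 in controls, a log2 fold change of 1.83 (SE 0.17) or 3.55-fold. In MKN45 cells it was at 7.95, 8.37 and 8.08 with ESRRG OE and at 8.05, 7.75 and 7.78 in controls, and the groups overlapped. The MKN45 difference was 0.27 (SE 0.16) on the log2 scale and 0.50 with all arrays scaled to one median. AGS minus MKN45, the fold changes differed by 1.55 log2 units (SE 0.18). In all 4 groups CYP1A1 was detected on every array, and the order of the group means was ESRRG OE AGS, control AGS, ESRRG OE MKN45 and control MKN45, of which the last pair overlapped.

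CYP1B1, the extrahepatic relative of CYP1A1 that hydroxylates estradiol, was near the background everywhere. It was at 6.99 ± 0.08 in ESRRG OE MKN45 cells, detected on 2 of 3 arrays, and at 7.28 ± 0.16 in control MKN45 cells, detected on all 3 (SD, n = 3 each). The 2 groups were separated by 0.05 log2 units only, and the log2 fold change was -0.29 (SE 0.10). In AGS cells it was detected on 1 ESRRG OE array and no control array, with means of 6.78 ± 0.18 and 6.75 ± 0.04 (SD, n = 3 each).

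AADAC, arylacetamide deacetylase, is an esterase of the endoplasmic reticulum that hydrolyses drug esters and amides. It was at 9.11, 8.95 and 9.19 in ESRRG OE AGS cells and at 7.19, 7.29 and 7.10 in controls. In MKN45 cells it lay between 7.89 and 8.13 (mean 8.01 ± 0.12, SD, n = 3) with ESRRG OE, against 6.96, 6.91 and 6.99 in controls, of which 1 was detected. ESRRG OE arrays lay above all control arrays in both lines, with log2 fold changes of 1.89 (SE 0.09) in AGS cells, 3.70-fold, and 1.05 (SE 0.07) in MKN45 cells, 2.07-fold. The fold was larger in AGS cells by 0.84 log2 units (SE 0.12), the reverse of the order for HSD3B1. With controls this close to the background the fold was 8.44 in AGS and 4.93 in MKN45 cells after neqc.

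Of the conjugating enzymes, SULT2A1 stood out. SULT2A1 is the hydroxysteroid sulfotransferase that turns DHEA and bile acids into their sulfates, mostly in adrenal gland and liver. It was at 11.83, 11.83 and 11.90 in ESRRG OE AGS cells and at 7.67, 7.77 and 7.55 in controls. Its MKN45 values were 11.68, 11.40 and 11.74 with ESRRG OE and 7.74, 7.68 and 7.63 in controls. Controls of the 2 lines differed by 0.02 log2 units and ESRRG OE arrays by -0.25 (MKN45 minus AGS), both small beside the gap between the vectors. The log2 fold change was 4.19 (SE 0.07) in AGS and 3.92 (SE 0.11) in MKN45 cells, 18.3-fold and 15.2-fold, and after neqc it was 33.0-fold in AGS cells, against 26.9-fold in the other line. The fold changes differed by 0.27 log2 units (SE 0.13), but with all arrays scaled to one median they were 4.21 in AGS and 4.21 in MKN45 cells.

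SULT1A1, the phenol sulfotransferase that acts on simple phenols and estrogens, did not share this. Of its 5 probes, 2 were detected on all 12 arrays, 2 on none and 1 on 3 arrays. The brightest was at 11.62, 11.54 and 11.56 in ESRRG OE AGS cells and at 11.16, 11.55 and 11.80 in controls, where the control arrays spanned the ESRRG OE values. In MKN45 cells the values were 10.52, 10.80 and 11.25 with ESRRG OE and 11.30, 11.44 and 11.42 in controls, a log2 fold change of -0.53 (SE 0.22) across a gap of 0.04 between the groups. The second detected probe differed by 0.16 (SE 0.12) in MKN45 and 0.01 (SE 0.15) in AGS cells, with overlapping groups in both, so the lower value in MKN45 cells rested on 1 probe. The mean over the gene's probes differed by -0.09 in MKN45 cells. SULT1A1 is near-identical to its neighbours SULT1A2, SULT1A3 and SULT1A4, and the probes may not separate them.

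**Figure D2:**
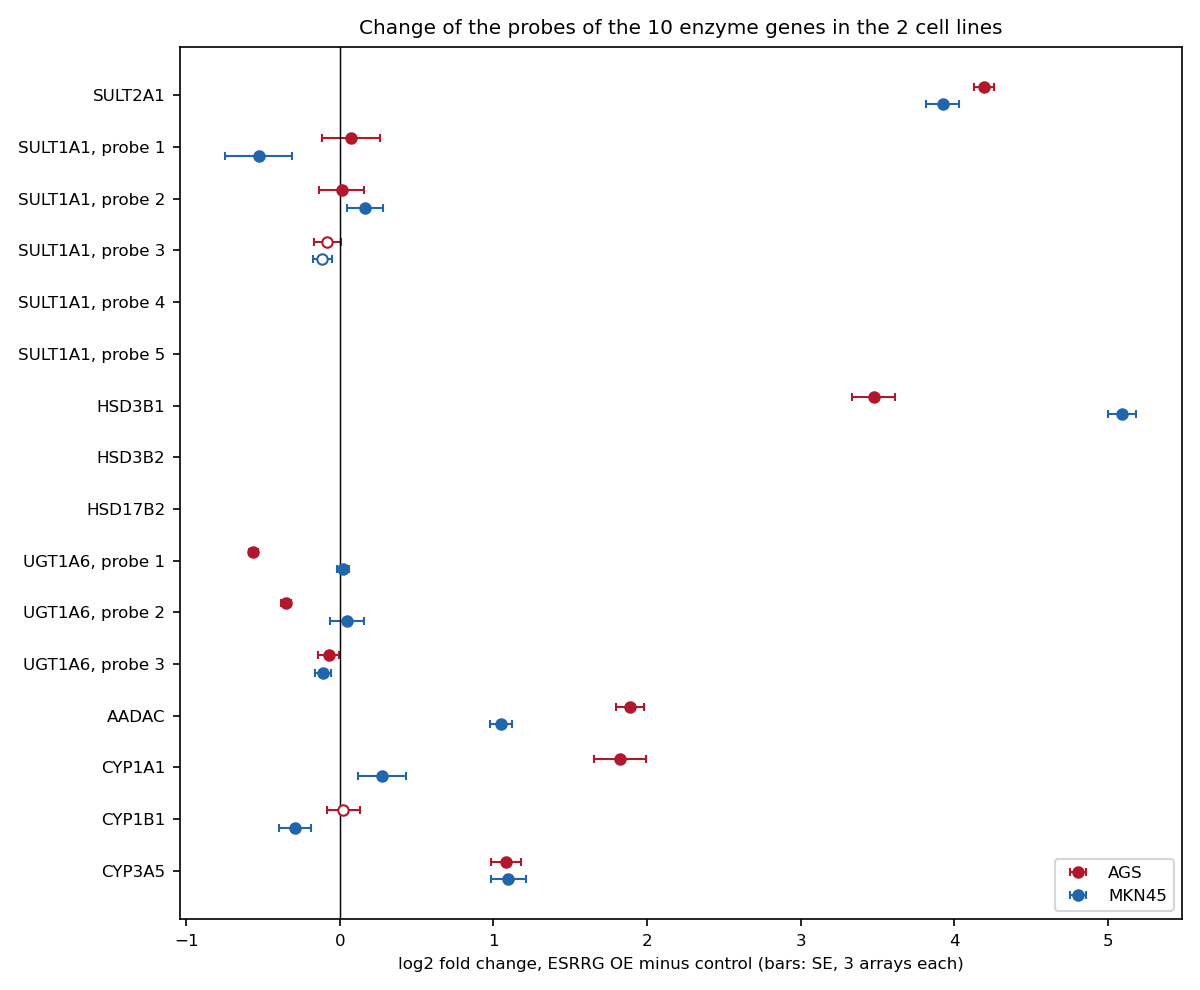
Log2 fold change (x axis, ESRRG OE minus control) of the 16 probes (y axis, brightest probe of a gene first) in AGS and MKN45 cells, with bars for the SE over 3 arrays a group. Open points are probes detected on fewer than 3 of the 6 arrays of that line, and probes detected on no array of a line have no point. HSD3B1 (3.48 in AGS and 5.09 in MKN45), AADAC and CYP1A1 lie apart in the 2 lines, whereas SULT2A1 and CYP3A5 lie close together.

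UGT1A6, a glucuronosyltransferase of phenols, was lower on all ESRRG OE arrays than on all control arrays of AGS cells, and its control level differed most between the lines. Its brightest probe was at 7.03, 7.04 and 6.95 in ESRRG OE AGS cells and at 7.59, 7.58 and 7.55 in controls, a log2 fold change of -0.56 (SE 0.03), which brought it to the background on 1 of 3 arrays. In MKN45 cells it was at 10.13, 10.12 and 10.15 with ESRRG OE and at 10.10, 10.19 and 10.06 in controls, which overlapped. MKN45 controls were 2.55 log2 units above AGS controls. A second UGT1A6 probe was detected on none of the ESRRG OE arrays of AGS cells (6.87 ± 0.03) and on all 3 control arrays (7.22 ± 0.05, SD, n = 3 each), and differed by 0.05 on the log2 scale in MKN45 cells. The third was near the background in AGS cells (6.95 ± 0.02 with ESRRG OE and 7.02 ± 0.11 in controls, SD, n = 3 each) and differed by -0.11 (SE 0.05) in MKN45 cells. After neqc the AGS value of the brightest probe was -1.40.

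The UGT1A enzymes are made from one locus in which alternative first exons share the remaining exons, so a probe in the shared part would read several of them. UGT1A1, the bilirubin-conjugating form, is outside the 10 genes and was higher with ESRRG OE in both lines. It was at 9.45, 9.35 and 9.35 in ESRRG OE AGS cells and at 7.76, 7.65 and 7.37 in controls, and at 9.20, 9.48 and 9.27 in ESRRG OE MKN45 cells and at 7.08, 7.13 and 7.14 in controls. UGT1A1 rose by 1.79 log2 units in AGS cells (SE 0.10, adjusted p = 1.08e-09) and by 2.20 in MKN45 cells (SE 0.09, adjusted p = 2.56e-10, limma), or 3.46-fold and 4.59-fold. In control cells, where UGT1A6 was far higher in MKN45 than in AGS cells, UGT1A1 was at 7.12 ± 0.03 in MKN45 and 7.60 ± 0.20 in AGS cells (SD, n = 3 each).

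**Figure D3:**
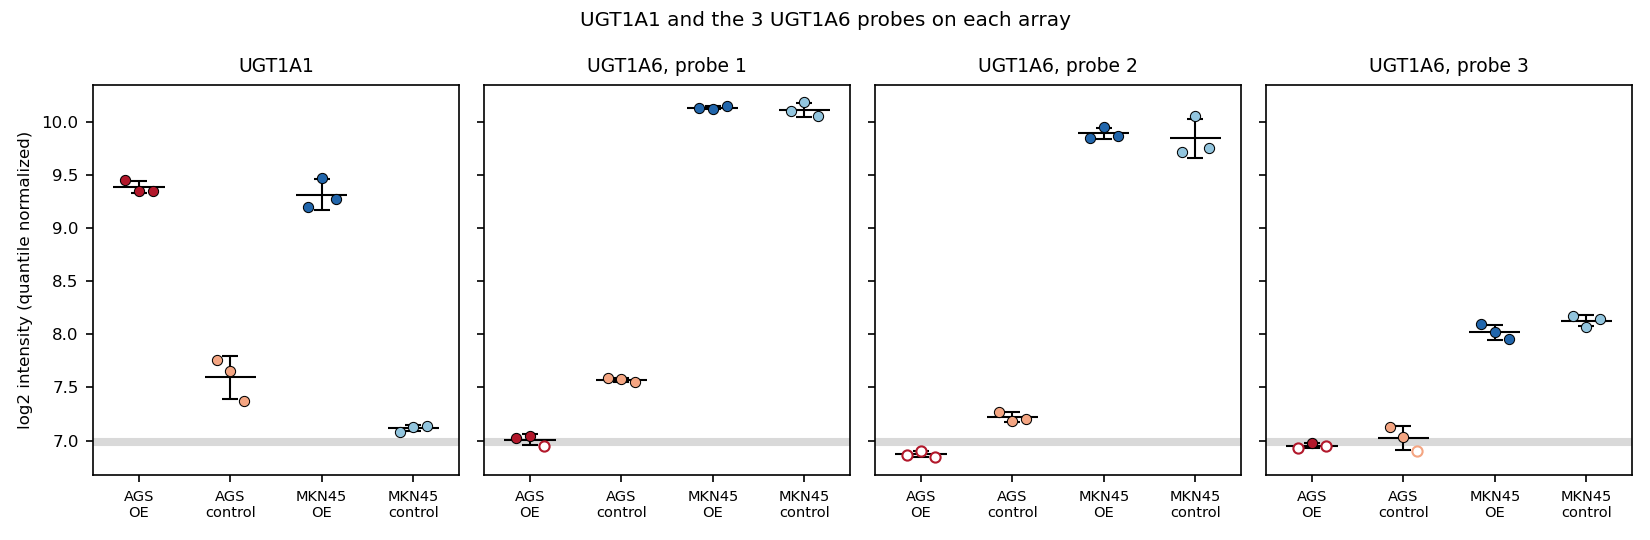
Log2 intensity (y axis) of the UGT1A1 probe and of the 3 UGT1A6 probes, numbered by the order used for the fold changes, on each array by group (x axis). Open points are undetected arrays, bars the mean ± SD of 3 arrays and the grey band the lowest level of a detected probe. UGT1A1 is above its controls on all 6 ESRRG OE arrays, while UGT1A6 separates the 2 lines and, in AGS cells, sits at the band with ESRRG OE.

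The wider families of these enzymes were taken whole, 150 other genes in 7 lists, of which 140 had a named probe. In AGS cells 67 of them passed the filter, and 24 of these rose, 10 fell and 33 stayed short of the threshold, with a median log2 fold change of 0.05 against -0.02 for all genes. In MKN45 cells 63 were tested, and 19 rose, 12 fell and 32 stayed short, with a median of 0.07 against -0.01. In all, 50.7% of the tested family genes changed in AGS and 49.2% in MKN45 cells, beside 51.3% and 41.0% of all genes in the same lines. The split of rises and falls moved with the scaling: with all arrays scaled to one median it was 29 to 5 in AGS and 25 to 2 in MKN45 cells, and the median of all genes itself moved to 0.10 and 0.16. A fall is therefore relative to the quantile normalization, and those lost under the other scaling are named below. A gene undetected in the controls passed the filter through its ESRRG OE arrays alone and could be called only as a rise. Among the genes named below this was so for CES1 in both lines and for CYP1A2, GSTA1 and SLC51A in AGS cells. Nothing is read from the p-values of these genes.

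In glucuronidation, 4 of 7 tested genes rose and 0 fell in AGS cells, beside 24.1% and 27.2% of all genes. In MKN45 cells 3 of 6 rose and 0 fell, beside 20.1% and 20.9% of all genes. Apart from UGT1A1, UGT8 and UGP2 rose in both lines. UGT8, the ceramide galactosyltransferase, rose by 1.06 log2 units in AGS (SE 0.09, adjusted p = 1.41e-07) and 0.76 in MKN45 cells (SE 0.08, adjusted p = 1.12e-05, limma). UGP2, which makes UDP-glucose, the precursor of the sugar donor, rose by 0.42 in AGS (SE 0.08, adjusted p = 3.39e-04) and 0.81 in MKN45 cells (SE 0.08, adjusted p = 4.54e-06, limma). The remaining AGS rise was that of UGT1A3, another enzyme of the UGT1A locus, named here after its values were seen. It rose by 0.31 (SE 0.10, adjusted p = 0.0137, but 0.0639 without ESRRG OE replicate 3 and 0.0545 without control replicate 2), and differed by 0.07 in MKN45 cells (adjusted p = 0.566, limma). The median log2 fold change of the list was 0.31 in AGS and 0.41 in MKN45 cells. Most UGT1A and UGT2B probes were too rarely detected to be tested.

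In sulfation, the tested genes other than the members changed by 0.77 log2 units or less. SULT2B1, the cholesterol sulfotransferase of the same subfamily, rose by 0.56 log2 units in AGS cells (SE 0.11, adjusted p = 3.79e-04) and was at -0.02 in MKN45 cells (adjusted p = 0.898, limma), and its next brightest probe differed by 0.09 in AGS cells with overlapping groups. SULT1C4 fell by 0.77 in AGS (SE 0.10, adjusted p = 7.19e-06) and 0.45 in MKN45 cells (SE 0.08, adjusted p = 6.99e-04, limma), and the MKN45 change did not pass under one-median scaling. In the supply of the sulfate donor PAPS, PAPSS1, a PAPS synthase, fell by 0.25 in AGS cells (SE 0.09, adjusted p = 0.0233, but 0.0958 without ESRRG OE replicate 2 and 0.123 without control replicate 3), and BPNT1, which removes the spent cofactor, rose by 0.58 there with overlapping groups (SE 0.16, adjusted p = 0.00694, limma). In MKN45 cells PAPSS1 differed by -0.15 and BPNT1 by -0.02, and the difference between the lines passed for neither (adjusted p = 0.602 and 0.0862, limma). Over the list 3 of 7 tested genes rose and 2 fell in AGS cells, and 0 of 6 rose and 1 fell in MKN45 cells, with medians of 0.12 in AGS and -0.02 in MKN45 cells.

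Steroid dehydrogenases and reductases other than the members changed little beside HSD3B1. In AGS cells 5 of 17 tested genes rose and 3 fell (median 0.11), and in MKN45 cells 3 of 15 rose and 4 fell (median -0.12). The 2 aldo-keto reductases that act on opposite sides of androgen metabolism went opposite ways in AGS cells. AKR1C3, which makes testosterone from androstenedione, rose by 0.69 log2 units (SE 0.09, adjusted p = 9.67e-06, limma). AKR1C2, which inactivates dihydrotestosterone, fell by 0.66 (SE 0.10, adjusted p = 3.52e-05, limma). The AKR1C2 fall did not pass with its probes averaged, and its other probes were detected on no array. In MKN45 cells AKR1C3 was at -0.04 and AKR1C2 at -0.12. AKR1C2 levels were near the background there, at 6.98 ± 0.08 with ESRRG OE (detected on 1 array) and 7.09 ± 0.14 in controls (SD, n = 3 each). HSDL1 rose in both lines, by 0.41 in AGS and 0.46 in MKN45 cells (adjusted p = 0.00203 and 2.98e-04, limma). HSD11B2, which inactivates cortisol, fell by 0.46 in AGS and 0.24 in MKN45 cells (adjusted p = 6.98e-04 and 0.0401, limma), the MKN45 change with an adjusted p of 0.0706 to 0.165 without ESRRG OE replicate 2 or 3 or control replicate 1 or 3 of that line. HSD17B10, a mitochondrial dehydrogenase, fell by 0.44 and 0.34 in these lines (adjusted p = 0.00165 and 0.00525, limma). In MKN45 cells HSD17B4, of peroxisomal beta-oxidation, rose by 0.39 (adjusted p = 0.005) and SRD5A1, a steroid 5-alpha-reductase, fell by 0.38 (adjusted p = 0.00669, limma). The MKN45 falls of HSD11B2, HSD17B10 and SRD5A1 and the AGS fall of HSD17B10 did not pass under one-median scaling.

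In the cytochrome P450 system, POR was the gene that changed most in the list of steroid synthesis. POR is the reductase that passes electrons to all microsomal P450 enzymes. It was at 10.87, 10.56 and 10.46 in ESRRG OE AGS cells and at 9.01, 9.40 and 9.13 in controls, and rose by 1.45 log2 units (SE 0.12, adjusted p = 6.68e-08, limma). The MKN45 values were 10.50, 10.37 and 10.21 with ESRRG OE and 9.13, 8.98 and 9.36 in controls, and POR rose by 1.20 (SE 0.10, adjusted p = 9.89e-07, limma). FDX1, the electron donor of mitochondrial P450 enzymes, rose by 0.35 in MKN45 cells (adjusted p = 0.00982) and TSPO, a cholesterol-binding protein of the outer mitochondrial membrane, fell by 0.26 there (adjusted p = 0.0162, limma), though not under one-median scaling. The FDX1 change did not pass without ESRRG OE replicate 1 (adjusted p = 0.0539) or control replicate 3 (0.0577), and the TSPO change did not pass without ESRRG OE replicate 2 (0.0824) or 3 (0.0535, limma). Of the enzymes that carry steroid synthesis from cholesterol to estrogens, CYP17A1 and CYP19A1, and with them the cholesterol carrier STAR, were not detected often enough to be tested. CYP11A1, which opens the pathway, was tested in AGS cells, where it differed by -0.07 (SE 0.08, adjusted p = 0.504, limma), and these 4 genes are named after their values were seen.

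Among P450 genes of families 1 to 4 other than the members, 3 of 6 tested rose and 1 fell in AGS cells, and 2 of 5 rose and 0 fell in MKN45 cells. CYP2S1, an extrahepatic enzyme of epithelia, rose by 1.67 log2 units in AGS (3.18-fold, SE 0.09, adjusted p = 8.38e-10) and 1.24 in MKN45 cells (2.36-fold, SE 0.09, adjusted p = 1.61e-07, limma), and its second probe was higher by 1.51 in AGS and 1.17 in MKN45 cells. CYP2R1, a vitamin D 25-hydroxylase, rose by 0.40 in AGS (adjusted p = 7.28e-04) and 0.62 in MKN45 cells (adjusted p = 8.05e-05, limma). CYP2J2, which epoxidizes arachidonic acid, fell by 0.45 in AGS cells (adjusted p = 8.07e-04, limma), though not under one-median scaling. CYP1A2, the liver paralog of CYP1A1, was undetected on all AGS control arrays and detected on the 3 ESRRG OE arrays at 7.31 ± 0.03 (SD, n = 3). It rose at least 1.23-fold (adjusted p = 2.52e-06, limma), a bound set against the lowest level of a detected probe on each control array. In MKN45 cells CYP1A2 was detected on no array and was not tested.

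**Figure D4:**
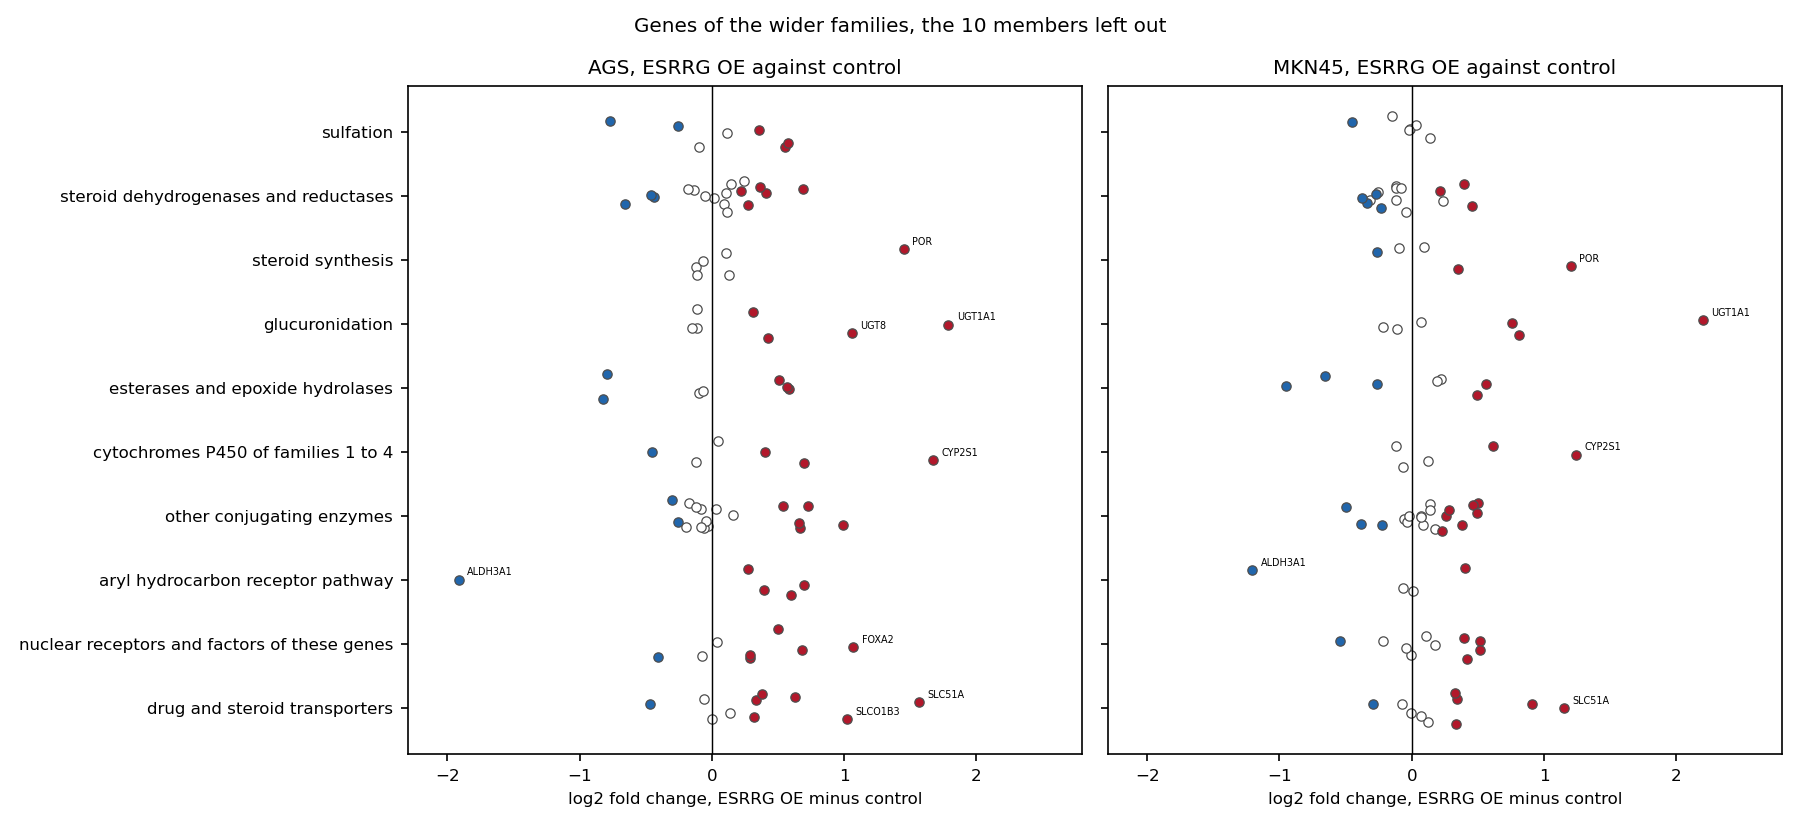
Log2 fold change (x axis, ESRRG OE minus control) of the tested genes of 10 lists around the members (y axis, points spread within a list for sight) in AGS and MKN45 cells. Red points rose and blue points fell at an adjusted p under 0.05 (limma), white points did not pass, and names mark changes over 1 log2 unit. UGT1A1, POR, CYP2S1 and SLC51A lie to the right and ALDH3A1 to the left in both lines.

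CYP1A1 and CYP1A2 belong to the aryl hydrocarbon receptor pathway, whose listed genes, CYP1A2 among them, did not move as 1 group. In AGS cells 4 of 5 tested genes rose and 1 fell, and in MKN45 cells 1 of 4 rose and 1 fell. TIPARP, a receptor target that feeds back on it, rose by 0.60 in AGS (SE 0.09, adjusted p = 6.37e-05) and 0.40 in MKN45 cells (SE 0.09, adjusted p = 0.00231, limma). ALDH3A1, an aldehyde dehydrogenase that is also a known target, fell in both lines. It was at 9.40, 9.59 and 9.40 in ESRRG OE AGS cells and at 11.47, 11.34 and 11.32 in controls, and fell by 1.92 log2 units (SE 0.09, adjusted p = 1.20e-10), and it fell by 1.21 in MKN45 cells (SE 0.08, adjusted p = 7.35e-08, limma). The receptor itself, AHR, gave probe-dependent values: the brighter probe rose by 0.40 in AGS cells (adjusted p = 0.00491, limma) and differed by 0.01 in MKN45 cells. The other AHR probe was higher by 1.45 in AGS and by 1.26 in MKN45 cells, where it was at 9.39 ± 0.20 with ESRRG OE and 8.13 ± 0.01 in controls (SD, n = 3 each). NQO1 rose by 0.27 in AGS cells (adjusted p = 0.0122, limma), not after neqc or with its probes averaged. ARNT, ARNT2 and AHRR were not detected often enough to be tested.

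The esterases around AADAC divided. NCEH1, a relative of AADAC and a hydrolase of cholesteryl esters, rose by 0.58 in AGS (SE 0.10, adjusted p = 1.26e-04) and 0.50 in MKN45 cells (SE 0.09, adjusted p = 4.00e-04, limma). CES1, the carboxylesterase of liver, was undetected in both control groups and was, with ESRRG OE, at least 1.27-fold higher in AGS cells and at least 1.25-fold higher in MKN45 cells (adjusted p = 2.20e-05 and 1.23e-04, limma). The CES1 rise rests on 1 probe, as its other probes were detected on no array, with overlapping groups in both lines. CES2, the carboxylesterase of intestine, fell by 0.80 in AGS and 0.95 in MKN45 cells (adjusted p = 7.37e-07 and 1.26e-05, limma), and its other probe differed by -0.11 in AGS and -0.54 in MKN45 cells. PON2, an intracellular lactonase, fell by 0.83 and 0.66 in the same lines (adjusted p = 7.88e-07 and 1.38e-05, limma), the MKN45 change not under one-median scaling. Over this list 3 of 7 genes rose and 2 fell in AGS cells, and 2 of 7 rose and 3 fell in MKN45 cells.

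Of the other conjugating enzymes, 5 of 17 tested rose and 2 fell in AGS cells, and 7 of 19 rose and 3 fell in MKN45 cells. GSTA1, a glutathione transferase with steroid isomerase activity, was at 7.77, 7.74 and 7.79 in ESRRG OE AGS cells and undetected in controls, a rise of at least 1.70-fold (adjusted p = 1.00e-07), and differed by 0.18 in MKN45 cells (adjusted p = 0.143, limma). GSTM1 gave opposite signs by probe. Its brightest probe rose by 0.73 in AGS and 0.50 in MKN45 cells (adjusted p = 2.35e-06 and 3.43e-04, limma), a second differed by 0.88 in AGS and 0.63 in MKN45 cells, and another by -0.50 in AGS and -0.21 in MKN45 cells. In MKN45 cells MGST2, a microsomal glutathione transferase, rose by 0.49 (adjusted p = 2.31e-04) and GSTM3 fell by 0.50 (adjusted p = 2.32e-04, limma). GSTO2 fell by 0.30 in AGS and 0.23 in MKN45 cells (adjusted p = 0.0110 and 0.0327, limma). TPMT, which methylates thiopurines, fell by 0.25 and 0.38 there (adjusted p = 0.0246 and 0.00295, limma). The falls of GSTO2 and TPMT did not pass under one-median scaling in either line, and GSTO2 in MKN45 cells changed sign. In AGS cells GSTO2 also stayed short without ESRRG OE replicate 3 (adjusted p = 0.0541) and TPMT without ESRRG OE replicate 1 (0.148) or control replicate 2 (0.0586), and in MKN45 cells GSTO2 without ESRRG OE replicate 1 or 3 or control replicate 3 (0.0950 to 0.109, limma).

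Among transporters that export or take up conjugates and steroids, 10 of the 27 listed genes were tested in each line. For AGS cells 6 were called higher with ESRRG OE and 1 lower (median log2 fold change 0.32). For MKN45 cells the counts were 5 higher and 1 lower (median 0.23). Over all genes tested, the shares called were 24.1% higher, 27.2% lower (AGS) and 20.1% higher, 20.9% lower (MKN45). The list was chosen with earlier results known, so nothing is read from its counts. SLC51A, a subunit of the organic solute transporter that exports bile acids and sulfated steroids, was at 8.18, 8.53 and 8.38 in ESRRG OE AGS cells and undetected in controls, at least 2.56-fold higher with ESRRG OE (adjusted p = 2.27e-09, limma). In MKN45 cells it rose by 1.15 log2 units (SE 0.11, adjusted p = 2.17e-06, limma). Its MKN45 controls were at 6.77, 6.73 and 7.13, of which only the last was detected. It passed the filter there mainly through its ESRRG OE arrays, and the background limits the size of this rise. SLCO1B3, a hepatic uptake transporter, rose by 1.02 in AGS cells (SE 0.08, adjusted p = 6.98e-08) and differed by 0.07 in MKN45 cells (adjusted p = 0.519, limma). SLCO2B1, which takes up steroid sulfates, rose by 0.38 in AGS and 0.91 in MKN45 cells (adjusted p = 9.60e-04 and 1.73e-06), and SLC22A5, the carnitine transporter, fell by 0.47 in AGS and 0.29 in MKN45 cells (adjusted p = 1.92e-04 and 0.0193, limma). The MKN45 fall of SLC22A5 did not pass under one-median scaling, without ESRRG OE replicate 2 (adjusted p = 0.0827) or without control replicate 1 (0.0856, limma).

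Of the nuclear receptors and factors known to act on these genes, 5 of 8 tested rose and 1 fell in AGS cells, beside 24.1% and 27.2% of all genes. In MKN45 cells 4 of 10 rose and 1 fell, beside 20.1% and 20.9% of all genes. FOXA2, a factor of endoderm and liver genes, rose by 1.07 in AGS (SE 0.10, adjusted p = 3.75e-07) and 0.52 in MKN45 cells (SE 0.11, adjusted p = 0.00174, limma). ESRRA, the paralog of ESRRG, rose by 0.68 and 0.51 in these lines (SE 0.08 each, adjusted p = 4.11e-06 and 1.34e-04, limma). RXRA, the shared partner of the xenobiotic receptors, fell by 0.41 in AGS and 0.55 in MKN45 cells (adjusted p = 5.31e-04 and 0.0014, limma), in neither line under one-median scaling.

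Between the lines, 4 of the 8 members tested for an interaction between line and vector passed the threshold of limma, against 11.7% of all 11563 genes, and nothing is read from this count either. Across the 12 arrays, the genes most like HSD3B1 were RBBP6 (Pearson r = 0.995), CST2 (0.994) and ECM1 (0.993), and those most like SULT2A1 were FGB and FGA (0.998 each) and CBLIF (0.996), out of 11562 genes compared. These are descriptions over 12 arrays that share the 4 groups. CST2, a salivary cystatin, was at 9.52 ± 0.09 in ESRRG OE and 6.75 ± 0.12 in control AGS cells, and at 10.58 ± 0.09 in ESRRG OE and 6.92 ± 0.04 in control MKN45 cells (SD, n = 3 each). FGB, the fibrinogen beta chain, was at 13.36 ± 0.11 in ESRRG OE and 8.50 ± 0.14 in control AGS cells, and at 12.99 ± 0.06 in ESRRG OE and 8.67 ± 0.12 in control MKN45 cells (SD, n = 3 each). The first thus shared with HSD3B1 a higher ESRRG OE level in MKN45 cells. After quantile normalization the second shared with SULT2A1 a slightly higher ESRRG OE level in AGS cells.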

How the data were processed

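RNA of 12 samples was hybridized to Illumina BeadChip arrays, and the groups were taken from the labels. The authors deposited each probe's raw intensity (linear, neither corrected for background nor normalized), together with a detection p-value per probe and array, deposited by the authors as the scanning software gave it (GenomeStudio, whose version is not given in the sources used here). They also deposited log2 values made by the authors by quantile normalization. Quantile normalization of the deposited intensities, repeated here without background correction, came within 5e-04 of them.

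Probes were named through the platform's annotation: 30113 had 1 symbol, 8 several and 17202 none, giving 20046 genes, of which 0 symbols changed against the gene table of GRCh38.p14. A gene was represented by its brightest probe over the 12 arrays. It was tested in a line if that probe had a detection p-value under 0.05 on 3 or more of 6 arrays, and for the difference between lines if tested in either. ESRRG OE and control were compared within each line, and the response between lines over all 12 arrays, with lmFit and eBayes of limma 3.58.1 in R 4.3.3, with Benjamini-Hochberg adjustment over all genes tested. SEs of the 10 genes come from their own 3 arrays a group (those of line differences from limma); SEs of other genes come from limma. A fold against a group with no detected array is a lower bound: on each array of that group the probe was raised, where it was below, to the lowest level of any detected probe, and these values were averaged. The arrays' number limits the precision.

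The members, the 10 gene lists and the rules were chosen with earlier results of these data known. The text names the members, the 2 largest rises and falls per list and line, the aryl hydrocarbon receptor list, ESRRG, and the 3 genes most correlated with each of the 2 members of widest range. Of 210 listed genes, 21 without a named probe were not analysed here. The fits were first checked on simulated arrays with set changes. The methods name a random variance test with an unadjusted threshold of 0.001. Here it put 3473 genes past that threshold in AGS and 2508 in MKN45 cells, and 5599 and 4595 after adjustment. A t-test with each probe's own spread, called the methods' t-test, put 1446 genes past it in AGS and 874 in MKN45 cells, and 4246 and 3049 after adjustment. Other alternatives were scaling to one median, background correction (neqc, offset 16), quantile normalization within a line, other detection filters, one fit of all arrays, a replicate block, the mean of a gene's probes, the deposited values and leaving out each array.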

Additional observations from a re-analysis of the deposited data

Results flagged for a closer look

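No member met a rule for a closer look that did not rest on its selection. Of the 95 other listed genes tested for it, 16 changed by different amounts in the 2 lines by the limma test of the difference itself (AGS minus MKN45 log2 fold change, adjusted over all 11563 genes). HSD17B12, GSTA2, GSTM4 and SLCO4A1 are among these and are named after their values were seen.

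The response was higher in AGS cells for SLCO1B3 (0.95, adjusted p = 1.39e-05), GSTA1 (0.82, adjusted p = 2.57e-04), AKR1C3 (0.73, adjusted p = 0.00102), SLCO4A1 (0.71, adjusted p = 0.00890), GSTA2 (0.58, adjusted p = 0.00639), SULT2B1 (0.57, adjusted p = 0.0121, limma), FOXA2 (0.55, adjusted p = 0.0273), HSD17B12 (0.54, adjusted p = 0.00444), GSTM4 (0.52, adjusted p = 0.0290), CYP1A2 (0.51, adjusted p = 0.00365) and CYP2S1 (0.43, adjusted p = 0.0333). Of these genes, CYP1A2 was detected in no group other than ESRRG OE AGS cells. GSTA1 was undetected in AGS controls, and GSTA2 was near the background there and in MKN45 cells. The differences of CYP1A2, GSTA1 and GSTA2 thus rest on values near or below the background. Signed log2 fold changes were lower in AGS cells for ALDH3A1 (-0.71, adjusted p = 5.59e-04) and MGST2 (-0.58, adjusted p = 0.00218, limma). The same held for SLCO2B1 (-0.53, adjusted p = 0.00390), AKR1C2 (-0.54, adjusted p = 0.0125) and UGP2 (-0.39, adjusted p = 0.0251, limma). For ALDH3A1 and AKR1C2 the lower value stood for a larger fall in AGS than in MKN45 cells. In MKN45 cells AKR1C2 was near the background in both groups, which left little room for a measured fall there.

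HSD17B12, a dehydrogenase of fatty acid elongation, passed in opposite directions within the lines. It rose by 0.27 in AGS cells (adjusted p = 0.00946, but 0.269 with its 2 probes averaged) and fell by 0.27 in MKN45 cells (adjusted p = 0.0243, limma). The other HSD17B12 probe was detected on no AGS array. The MKN45 change did not pass under one-median scaling (adjusted p = 0.756) or without ESRRG OE replicate 1 or 2 or control replicate 1 of that line (0.0812 to 0.113, limma).

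The differences of SULT2B1, HSD17B12, AKR1C2, UGP2, CYP2S1, GSTM4, FOXA2 and SLCO4A1 did not pass with all arrays scaled to one median (adjusted p = 0.0756, 0.0809, 0.249, 0.0786, 0.414, 0.197, 0.276 and 0.0579 from limma, in this order). Those of UGP2, CYP2S1, FOXA2 and GSTM4 also missed the threshold without single arrays of either line, with adjusted p from limma of 0.0525 to 0.0721 for UGP2, 0.0542 to 0.0894 for CYP2S1, 0.0507 to 0.0806 for FOXA2 and 0.0598 to 0.0776 for GSTM4.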

How the results depend on the processing

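The counts over all genes and over the wider enzyme families stayed within 1.5 times of the reported ones under the alternatives run, apart from these. With the methods' t-test 3049 genes passed in MKN45 cells in place of 4609. For the difference between the lines, 1355 genes passed, against 381 with one-median scaling, 890 after neqc and 689 with the methods' t-test, and 884 to 1437 when single arrays were left out, the lowest without AGS ESRRG OE replicate 2. GSTO2 in MKN45 cells turned to 0.094 under one-median scaling; that scaling also moved the share of rises among all called genes to 70.7% from 47.0% in AGS and to 88.7% from 49.1% in MKN45 cells, and among the called family genes to 85.3% from 70.6% in AGS and to 92.6% from 61.3% in MKN45 cells. The cause was not tested. With the methods' t-test the named changes of AHR, BPNT1, HSDL1, HSD17B10, GSTO2, PAPSS1, TPMT and UGT1A3 in AGS and of FDX1, FOXA2, HSD11B2, HSD17B4, HSD17B12, RXRA, SLC22A5 and SRD5A1 in MKN45 cells did not pass. Deviations of same-numbered arrays correlated at -0.11, 0.26 and -0.02 in AGS and at 0.24, 0.00 and -0.02 in MKN45 cells. Those of differently numbered arrays ranged from -0.24 to 0.25 in AGS and from -0.24 to 0.23 in MKN45 cells. With 3 arrays a group, these values cannot settle whether the numbers mark pairs. With the replicate block 5743 genes passed in AGS, 4799 in MKN45 and 1452 for the difference between lines, in place of 5605, 4609 and 1355. Of the 16 fold changes of members with a detected array in a line, 11 moved by more than 1 SD after neqc, 9 under one-median scaling, 3 under normalization within a line and 2 with probes averaged, and 0 when single arrays were left out. Signal over background limits HSD3B1 and AADAC in controls, CYP1B1, and UGT1A6 in AGS cells, whose signals lay near it, and HSD3B2 and HSD17B2, which were not detected on any array.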
